A study of Mus musculus with 16 samples.

Results

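The genes described here are 9 core genes of the hedgehog pathway, taken by name from the 23234 features of each deposited table: the ligands Shh, Ihh and Dhh, the receptor Ptch1, the ligand-binding antagonist Hhip, the signal carrier Smo and the transcription factors Gli1, Gli2 and Gli3. Each name matched 1 feature. RNA came from tissue cut by laser out of frozen sections. All embryos were wild type, male and of the outbred CD1 mouse stock, with no treatment named for any group. The groups were the dorsal and the ventral cloaca at E10.5, where the cloaca is the chamber shared by the early gut and urinary tract, and the hindgut (labelled as rectum and hindgut epithelium) and the urethra (labelled as pelvic urethra and its epithelium) at E13.5. Each age had 4 embryos, and by the sample names the same 4 gave both regions, so that every group had 4 libraries of 1 embryo each, but the tables hold a single FPKM per gene and region (fragments mapped per kilobase of transcript, relative to all mapped fragments). No spread between embryos, error or p-value can therefore be given, depth is unknown, and nothing below could be checked against replicates.

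Hedgehog proteins are secreted signals that bind Patched receptors. Without ligand, Patched holds the membrane protein Smoothened inactive. With ligand, Smoothened signals through the primary cilium to the Gli factors, which otherwise act largely as repressors, Gli3 above all. Ptch1, Gli1 and Hhip are themselves widely used as transcriptional readouts of the signal. In the embryonic cloaca and gut the ligands come from the epithelium and much of the response lies in the surrounding mesenchyme, and loss of Shh in mice disrupts cloacal septation and genital outgrowth.

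The tissue labels were checked against marker lists. Epithelial genes, led by Cldn6, Krt19 and Epcam, summed to 1960 FPKM in dorsal and 1854 in ventral cloaca, and to 3298 in hindgut and 1842 in urethra, with none of the 12 at 0. Their median difference of log2(FPKM + 1) was -0.17 at E10.5, ventral minus dorsal, and -0.59 at E13.5, urethra minus hindgut. Over all genes with at least 1 FPKM in either region it was 0.04 and 0.01. The part of epithelial content in the ligand values was not tested. The 17 mesenchymal genes, led by Vim, Prrx1 and Postn, summed to 157 and 122 FPKM at E10.5 and to 155 and 152 at E13.5. RNA of mesenchymal genes was thus present in all 4 groups, at a lower summed level than that of epithelial genes. Among the markers of a possible other Shh source, the notochord gene T stood at 0.2 FPKM in dorsal cloaca and 0.032 in urethra and was listed at 0 in the other two groups, and Noto stood at 0.14 in dorsal cloaca and at 0 elsewhere.

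Shh was by far the most abundant ligand. Its level was 623 FPKM in dorsal cloaca, 684 in ventral cloaca, 118 in hindgut and 217 in urethra. In the E10.5 columns it ranked 105 and 92 from the top of all features, and in the E13.5 columns 636 and 340. The dorsal and ventral cloaca thus held nearly equal amounts, with a ventral minus dorsal difference of log2(FPKM + 1) of 0.13, while at E13.5 the urethra held more than the hindgut, with a difference of 0.88. In bulk tissue, fewer cells of a type and less RNA per cell cannot be told apart. Genes were called apart when this difference was 1 or more in size, which is 2-fold, and either region had at least 1 FPKM, and Shh lay inside that limit at both ages. The 2 tables were normalized separately, so levels at E10.5 and E13.5 are only set side by side; the E10.5 values were 5.29 times the hindgut value on the dorsal side and 3.15 times the urethral value on the ventral side.

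Ihh, the ligand best known in gut epithelium and growth cartilage, had the widest regional difference of the 9 genes. It stood at 4.95 FPKM in dorsal cloaca, 6.90 in ventral cloaca, 15.7 in hindgut and 0.74 in urethra. The cloacal values lay close together, with the ventral one slightly higher (difference 0.41), and at E13.5 the hindgut was the high group and the urethra the low one (difference -3.26). The hindgut FPKM was 21.3 times the urethral FPKM. That ratio rests on a urethral value under 1 FPKM, and with a pseudocount of 5 the difference was -1.85. Markers of intestine, led by Lgals4 (read jointly with Lgals6), Hnf4a and Gpa33, moved with Ihh at E13.5. All 7 of 10 that reached 1 FPKM were over 2-fold higher in hindgut, against 4.59% of all genes above that minimum. Their list summed to 362 FPKM in hindgut and 2.86 in urethra, and Cdx2 was the one listed at 0 in hindgut. At E10.5, 4 of the list passed the minimum, 2 of them over 2-fold higher dorsally and 1 ventrally, against 9.62% and 10.6% of all genes. In ventral cloaca, 5 of the list were at 0. The list then summed to 22.7 FPKM dorsally, of which Cdx2 gave 15.5, and to 7.04 ventrally, of which Vil1 gave 5.99. Vil1 shares its listed span with 4 other features. The part of intestinal cell content in the Ihh difference was not tested.

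Dhh, the ligand of Sertoli and Schwann cells, was listed at 0 in both E10.5 columns and stood at 0.10 FPKM in hindgut and 0.0096 in urethra. It reached the minimum at neither age. Of the summed FPKM of the 3 ligands, a sum that FPKM allows because it is per length, Shh made up 99.2% in dorsal cloaca, 99.0% in ventral cloaca, 88.2% in hindgut and 99.7% in urethra. Ihh made up 0.79%, 1.00%, 11.8% and 0.34% in the same order. The hindgut was thus the group with the largest Ihh share, and Shh still outnumbered Ihh there by 7.50 to 1 on the FPKM scale, against 294 to 1 in the urethra. The urethral ratio rests on an Ihh value under 1 FPKM.

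**Figure D1:**
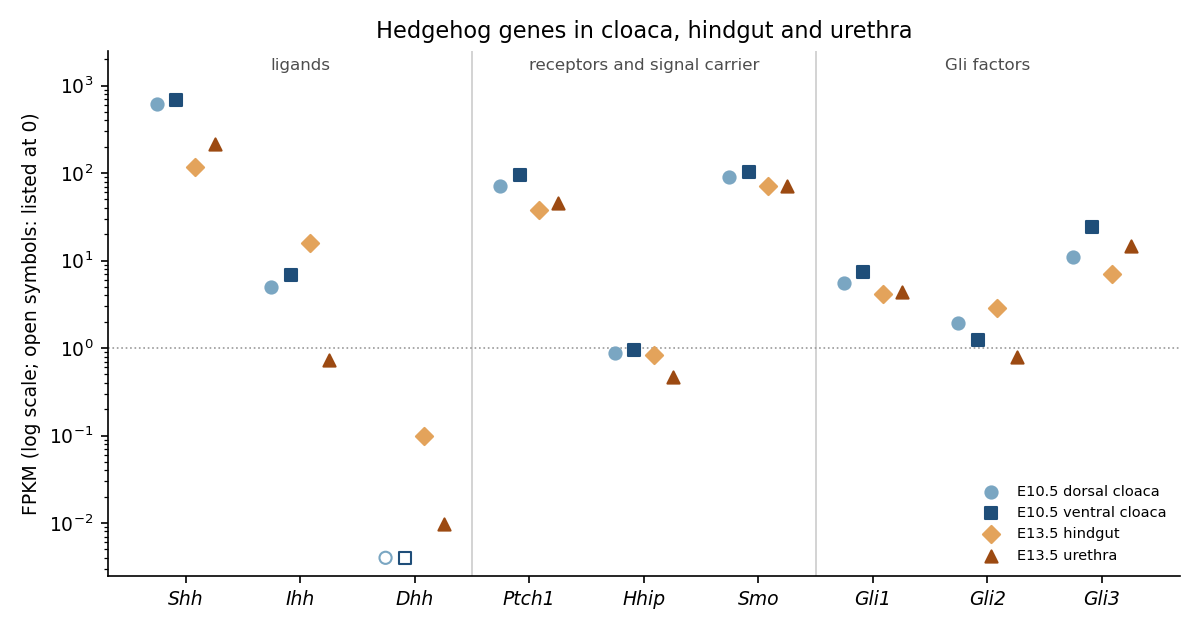
FPKM of the 9 hedgehog genes on a log axis, 1 symbol per gene and group, each the authors' single value over 4 libraries with no error available; the dotted line marks 1 FPKM. Shh leads at 118 to 684 FPKM, Smo and Ptch1 follow at 37.4 to 101, and Ihh is the gene whose E13.5 symbols lie furthest apart, at 15.7 and 0.74.

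Ptch1, which encodes the main receptor and is also a target of the signal, was abundant in every group. It stood at 70.8 FPKM in dorsal cloaca, 94.3 in ventral cloaca, 37.4 in hindgut and 45.0 in urethra. The ventral side was slightly higher at both ages, with differences of 0.41 and 0.26, inside the 2-fold limit. Smo, the signal carrier that Ptch1 restrains, was even between the regions at both ages, at 91.2, 101, 70.6 and 71.4 FPKM in the same order and with differences of 0.15 and 0.01. The FPKM ratio of Smo to Ptch1 was 1.29 in dorsal and 1.08 in ventral cloaca, and 1.89 in hindgut and 1.58 in urethra. Both genes lay above at least 91.4% of all features in each column.

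Hhip, a membrane protein that binds and sequesters hedgehog ligands, was low everywhere. It stood at 0.87 FPKM in dorsal cloaca, 0.94 in ventral cloaca, 0.84 in hindgut and 0.46 in urethra, under the minimum at both ages. Among readouts of the signal it thus stood far below Ptch1.

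Gli1, an activator that is switched on by the signal, stood at 5.51 FPKM in dorsal cloaca, 7.33 in ventral cloaca, 4.13 in hindgut and 4.33 in urethra. The regions differed by 0.36 at E10.5 and 0.05 at E13.5. Gli1 and Ptch1 kept a narrow ratio to each other, since Ptch1 was 12.9 times Gli1 in FPKM in both parts of the cloaca, 9.06 times in hindgut and 10.4 times in urethra.

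Gli3, the main repressor of the family, was the most abundant Gli gene in every group and leaned to the ventral side. It stood at 10.8 FPKM in dorsal and 24.1 in ventral cloaca, and at 7.06 in hindgut and 14.7 in urethra. The difference was 1.09 at E10.5, past the 2-fold limit, and 0.96 at E13.5, just short of it; without a pseudocount the ventral FPKM was 2.23 and 2.09 times the dorsal one. With a pseudocount of 5 the E10.5 difference was 0.88, inside the limit, and with one of 0.1 the E13.5 difference was 1.05, past it. Gli2, the main activator, went the other way, at 1.94 FPKM in dorsal and 1.24 in ventral cloaca and at 2.84 in hindgut and 0.78 in urethra. Its difference was -0.39 at E10.5 and -1.11 at E13.5, where the hindgut FPKM was 3.64 times the urethral one. The E13.5 value rests on low levels and was -0.44 with a pseudocount of 5.

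The makeup of the Gli family therefore differed between the regions in the same direction at both ages. Of the summed Gli FPKM, Gli3 made up 59.3% in dorsal and 73.8% in ventral cloaca, and 50.3% in hindgut and 74.2% in urethra. Gli2 made up 10.6% and 3.80% at E10.5 and 20.3% and 3.94% at E13.5. Gli1 held 30.1% and 22.4%, then 29.4% and 21.8%. Gli3 was 19.4 and 18.9 times Gli2 on the ventral side at the 2 ages, and 5.58 and 2.48 times on the dorsal side. Such shares do not change when a whole column is multiplied by a common factor, but they can change under quantile normalization, and they have no error.

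**Figure D2:**
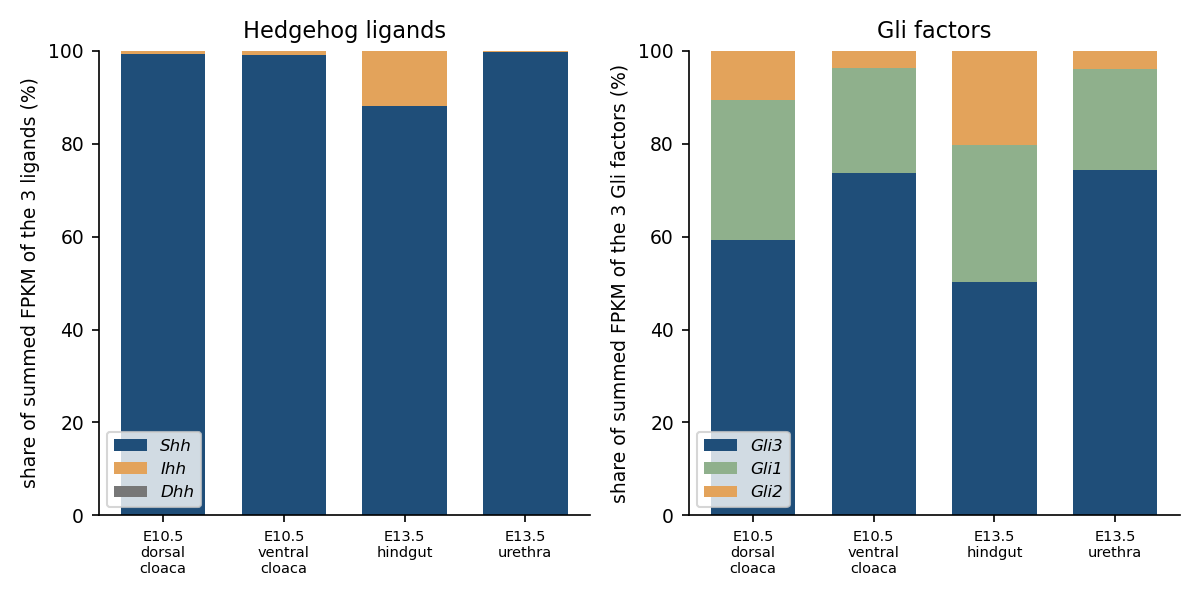
Share (%) of each ligand in the summed FPKM of the 3 ligands (left) and of each Gli factor in the summed FPKM of the 3 Gli factors (right), 1 bar per group and no error available. Ihh reaches 11.8% of ligand FPKM in hindgut, and Gli3 holds 73.8% and 74.2% on the ventral side against 59.3% and 50.3% on the dorsal side.

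Some genes of the cell type lists stood apart between the regions beside the Gli genes. Of the 8 genes on the surface ectoderm list, led by Krt15, Krt5 and Perp, 7 passed the minimum. At E10.5 these 7 were over 2-fold higher ventrally, as Gli3 was, and the list summed to 14.0 FPKM dorsally and 199 ventrally. At E13.5, 4 were over 2-fold higher in urethra and 3 lay within 2-fold, with sums of 821 in hindgut and 1314 in urethra. Krt15 stood at 517 in hindgut and 474 in urethra, and Perp at 172 and 222. Tfap2b, also on the list, was at 0.60 FPKM or less in all 4 groups. The presence of surface ectoderm is not read from this list. Of 11 mesenchymal genes above the minimum at E10.5, 1 stood over 2-fold higher ventrally and 3 dorsally. Of 16 at E13.5, 3 were past 2-fold toward the urethra and 4 toward the hindgut. Prrx2 and Lum were at 0 in ventral cloaca, and none was at 0 at E13.5. The counts of both lists stand against 10.6% of all genes higher ventrally and 9.62% dorsally at E10.5. At E13.5 they stand against 4.16% higher in urethra and 4.59% in hindgut. The part of cell content in the Gli values was not tested.

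Blood genes, led by Hba-x, Hbb-y and Hba-a1 and listed with macrophage genes, were abundant at E10.5. The list summed to 891 and 1186 FPKM at E10.5 and 38.2 and 95.2 at E13.5, dorsal side first, and Hba-x alone stood at 585 and 708 at E10.5. Of 7 above the minimum at E10.5, 2 were over 2-fold higher ventrally and none dorsally, against 10.6% and 9.62% of all genes. Of 7 at E13.5, not all the same, 5 were over 2-fold higher in urethra and none in hindgut, against 4.16% and 4.59%. These 5 were the globin genes Hbb-y and Hba-x and the macrophage genes Csf1r, C1qa and C1qb. Csf1r, C1qa and C1qb stood at 0.011, 0 and 0 FPKM in hindgut and at 2.64, 2.40 and 7.60 in urethra. The other marker lists were low. Smooth muscle genes, led by Des, Tagln and Myh11, summed to 13.3 and 5.54, then 2.75 and 4.78 FPKM. Endothelial genes, led by Esam, Emcn and Cdh5, summed to 1.26 and 11.1, then 0.56 and 0.61 FPKM, and Esam alone gave 8.63 of the 11.1. Nephric duct genes, led by Ret, Pax2 and Wnt11, summed to 13.5 and 6.91, then 2.75 and 1.49 FPKM. The notochord list, led by Sox9, Nog and Chrd, summed to 12.9 and 20.5, then 36.5 and 30.7 FPKM, nearly all of it Sox9.

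Counted together, 7 of the 9 members passed the minimum at each age; Dhh and Hhip did not. At E10.5, 1 of the 7, Gli3, was over 2-fold higher ventrally and none dorsally, where 10.6% of all 12379 genes above the minimum were higher ventrally, 9.62% dorsally and 20.2% in either direction. At E13.5, Ihh and Gli2 were over 2-fold higher in hindgut and none in urethra, where 4.16% of all 12369 genes were higher in urethra, 4.59% in hindgut and 8.76% in either direction. The median difference of the 7 was 0.36 at E10.5, against 0.04 over all genes tested, and 0.05 at E13.5, against 0.01. With 7 genes, nothing particular to the family is read from these counts. Quantile normalization added Shh, at a difference of 1.03, as higher in urethra.

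**Figure D3:**
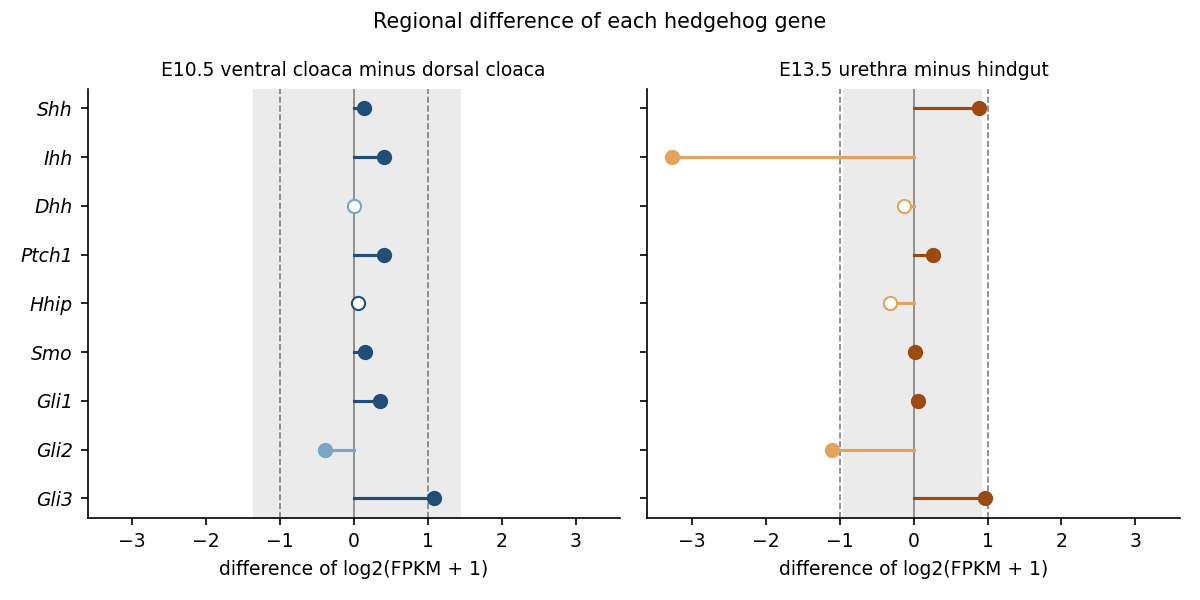
Difference of log2(FPKM + 1) between the regions for each member, ventral minus dorsal cloaca (left) and urethra minus hindgut (right); open circles are genes under 1 FPKM in both regions, dashed lines mark 2-fold and the grey band holds the middle 90% of all genes tested. Ihh (-3.26) and Gli2 (-1.11) lie left of the band at E13.5, Gli3 (0.96) lies just right of it, and no member leaves the band at E10.5.

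The members' loci are given on mm10, with starts counted from 1. Ihh (XLOC_000845) spans 74945318 to 74951651 and Gli2 (XLOC_000955) 118834061 to 119053619 of chromosome 1, Gli1 (XLOC_002286) 127323727 to 127341579 of chromosome 10, and Dhh (XLOC_007373) 98893027 to 98898540 of chromosome 15. Gli3 (XLOC_004897) spans 15463723 to 15730025 and Ptch1 (XLOC_005571) 63511533 to 63565520 of chromosome 13, Smo (XLOC_016437) 29735497 to 29761366 of chromosome 6 and Hhip (XLOC_020573) 79965851 to 80058008 of chromosome 8. The Shh feature (XLOC_015794) is listed at 28456840 to 28719209 of chromosome 5, far longer than the Shh gene itself, which GENCODE M21 places on the minus strand at 28456815 to 28467256 with 3 exons. It shares that span with the overlapping transcript 9530036O11Rik on the other strand, which stood at 0.41 to 1.66 FPKM. Gli1 shares its span with Arhgap9, on the other strand, at 1.42 FPKM or less. Reads of such overlapping genes may be split between them, so the values of Shh and Gli1 are uncertain to that extent. In GENCODE M21, Dhh and Ptch1 overlap a gene on their own strand, Rhebl1 and A930032L01Rik. Ihh is the only member that overlaps no other gene there, so the other values may be affected too.

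Ihh and Gli2 were the members that stood higher in hindgut than in urethra by over 2-fold, and the 250 bases before their annotated starts are shown so that the promoters of these members can be compared. The sequences come from RefSeq on GRCm38.p6, the assembly that mm10 represents, and run 5′ to 3′ on the gene's strand, which is minus for both. Ihh is at chr1:74951673-74951922 and Gli2 at chr1:119053620-119053869, and capitals mark CG dinucleotides.
Ihh: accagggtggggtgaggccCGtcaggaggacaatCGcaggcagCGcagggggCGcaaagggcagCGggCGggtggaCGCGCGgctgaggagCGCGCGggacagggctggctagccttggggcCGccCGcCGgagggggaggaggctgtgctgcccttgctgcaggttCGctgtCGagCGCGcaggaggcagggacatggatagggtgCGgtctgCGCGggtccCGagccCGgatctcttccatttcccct
Gli2: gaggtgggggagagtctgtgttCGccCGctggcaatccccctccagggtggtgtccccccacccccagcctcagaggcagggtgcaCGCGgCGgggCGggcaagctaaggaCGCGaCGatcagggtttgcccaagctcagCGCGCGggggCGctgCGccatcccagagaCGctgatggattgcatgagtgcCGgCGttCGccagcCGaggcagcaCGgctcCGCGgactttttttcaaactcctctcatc
These stretches hold 24 and 22 CG dinucleotides and are 72.0% and 67.2% G and C. In the RefSeq table, which adds 50 bases from the start on, 7 of the 9 members have an entry: Ihh, Dhh, Ptch1, Gli2, Gli3, Hhip and Smo. Their 300-base windows hold 12 to 47 CG dinucleotides, where the median of all 32851 promoters is 7. The GLI motif GACCACCCA, searched on both strands, is in none of the 7 windows and in 0.25% of all promoters. The forkhead motif TGTTTAC, searched likewise, is also in none of the 7 and is in 3.65% of all. Motifs this rare are absent from most promoters, and other starts of a gene were not searched, so nothing is read from their absence. Gli1 and Shh have no entry.

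The wider pathway was described with 5 lists of 98 genes in all. At E10.5, 90 passed the minimum, 11 of them over 2-fold higher ventrally and 14 dorsally, which is 27.8% against 20.2% of all genes. The dorsal count depended on the pseudocount. With one of 5, 8 pathway genes remained, 7 of them ventral, and Hsd11b2 was the only dorsal one. Over all genes, 401 ventral and 325 dorsal ones then remained. At E13.5, 89 passed, 8 over 2-fold higher in urethra and none in hindgut, which is 8.99% against 8.76%. Genes that stood apart at both ages numbered 2, Osr1 and Pax9. The medians were 0.02 and 0.18. By direction, the counts of each list below stand against 10.6% of all genes higher ventrally and 9.62% dorsally at E10.5, and at E13.5 against 4.16% toward the urethra and 4.59% toward the hindgut; nothing particular to a list is read from them.

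Of genes that make or release the ligands, 7 of 9 passed the minimum at E10.5, 2 of them past 2-fold ventrally and none dorsally. Their median was 0.85, which became 0.52 with a pseudocount of 5, 0.57 with no minimum or one of 5 FPKM, and 1.04 with a pseudocount of 0.1. Ext2, an enzyme of heparan sulphate synthesis on which hedgehog spread depends, stood at 60.2 FPKM dorsally and 185 ventrally, and Scube1, of the family of ligand-releasing proteins, at 0.99 and 4.21. Ext1, the partner of Ext2, was more even at 33.0 and 42.4 FPKM. At E13.5 the median was 0.28, and Scube3 alone passed the limit, at 4.88 FPKM in hindgut and 17.7 in urethra.

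Genes of ligand reception were mixed at E10.5, with 2 of 9 higher ventrally, 2 dorsally and a median of 0.14 that was 0.55 with a minimum of 5 FPKM. The co-receptor genes went different ways: Cdon stood at 7.31 FPKM dorsally and 15.7 ventrally, while Boc stood at 2.87 and 0.83 and Gas1 at 20.3 and 8.66. Cdon lay just past the limit, with a difference of 1.01, and lay inside it under upper-quartile scaling or quantile normalization. Gpc4, a cell surface glypican, had the widest difference of the list, at 5.44 FPKM dorsally and 35.4 ventrally, and Gpc6 stood at 61.7 and 118. At E13.5, 2 of 8 were higher in urethra, with a median of 0.18: the endocytic receptor gene Lrp2 at 0.21 FPKM in hindgut and 2.47 in urethra, and Gpc3, which binds and removes hedgehog ligand, at 60.0 and 172.

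Signal transduction genes were nearly even, with medians of -0.08 and 0.11. At E10.5, 4 of 23 were over 2-fold higher dorsally and none ventrally, against 9.62% and 10.6% of all genes. Evc2, which acts with Smo at the base of the cilium, stood at 11.4 FPKM dorsally and 3.45 ventrally and Iqce, of the same complex, at 8.11 and 3.07. The kinase gene Dyrk2 stood at 5.16 and 1.52 and Gsk3a, another kinase gene, at 36.2 and 16.7. The kinase genes Csnk1a1, at 61.4 and 67.6 FPKM, and Prkaca, at 59.8 and 56.7, had the highest means of the list. At E13.5 all 23 lay within 2-fold.

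Genes of the primary cilium, the organelle through which the signal passes, had medians of -0.18 and 0.20. At E10.5, 2 of 33 were higher ventrally, the transport genes Ift27 at 2.52 FPKM dorsally and 11.1 ventrally and Ift81 at 9.62 and 25.4. The 4 higher dorsally were Tctn1 at 6.33 and 1.76, Mks1 at 5.08 and 1.30 and B9d1 at 21.0 and 9.18, all of the ciliary transition zone, and the ciliary GTPase gene Arl13b at 7.53 and 3.23. Ift20 stood at 35.4 and 53.7. At E13.5 all 33 lay within 2-fold.

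Genes known to respond to hedgehog in other tissues split at E10.5, with 5 of 18 over 2-fold higher ventrally and 4 dorsally. The median was 0.18, but -0.05 with no minimum and -0.19 with a minimum of 5 FPKM. On the dorsal side stood the forkhead genes of gut mesenchyme and mesoderm Foxf1, at 7.08 FPKM against 1.28 ventrally, Foxf2 at 9.66 against 3.34 and Foxc2 at 6.58 against 2.47, and the steroid enzyme gene Hsd11b2 at 28.3 against 8.08. On the ventral side stood Osr1, a zinc finger factor of urogenital mesoderm, at 42.3 FPKM dorsally and 105 ventrally, Ccnd2, a cyclin gene, at 36.1 and 91.3, Cdk6 at 20.5 and 57.2, Pax9 at 2.45 and 6.47 and Snai1 at 1.46 and 4.28. Ccnd1, read jointly with Mir3962, stood at 54.1 and 102. At E13.5, 5 of 18 stood over 2-fold higher in urethra and none in hindgut, against 4.16% and 4.59% of all genes, with a median of -0.10 that was 0.00 with a minimum of 5 FPKM. They were Bcl2 at 17.6 FPKM in hindgut and 48.5 in urethra, Osr1 at 6.75 and 26.1, Osr2 at 2.41 and 6.27, Pax9 at 2.68 and 12.9 and the Notch ligand gene Jag2 at 9.64 and 22.6. Foxf1 and Foxf2, at 6.07 and 4.97 and at 17.8 and 17.9, were within 2-fold at E13.5.

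**Figure D4:**
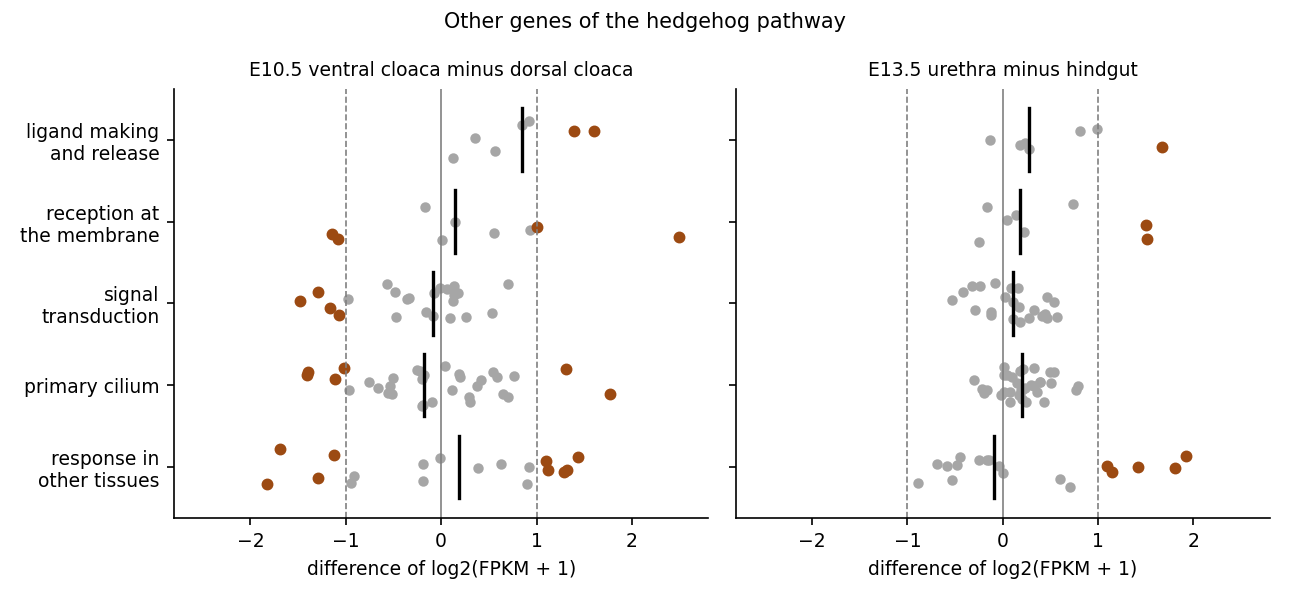
Difference of log2(FPKM + 1) between the regions at E10.5 (left) and E13.5 (right) for the other pathway genes, 1 point per gene above 1 FPKM in either region, by list; brown points lie past the dashed 2-fold lines, black bars are medians, and vertical scatter within a list has no meaning. The 11 ventral and 14 dorsal brown points at E10.5 are spread over all 5 lists, and the 8 at E13.5 all lie on the urethral side.

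The genes whose pattern over the 4 columns was nearest to that of Shh were found by the Euclidean distance between profiles of log2(FPKM + 1), each centred on its own mean. They were Cecr2, a chromatin gene, at a distance of 0.14, Rgs9, a regulator of G protein signalling, at 0.20, Fign, a microtubule-severing enzyme gene, at 0.22, Sall1, a zinc finger factor gene, at 0.23, and Tmem47, a membrane protein gene, at 0.25. Cecr2 stood at 17.3 FPKM in dorsal cloaca, 20.5 in ventral cloaca, 2.66 in hindgut and 5.05 in urethra. The pattern of Shh was even at E10.5 and lower at E13.5, with the urethra above the hindgut, and 148 of 6117 genes searched lay within a distance of 1. The pattern of Ihh had 4 of 6116 genes so near. They were the amino acid carrier gene Slc7a8 at 0.47, the endothelin receptor gene Ednrb at 0.59, the chloride channel gene Ano1 at 0.82 and the arginine derivative hydrolase gene Ddah1 at 0.84, and the myosin gene Myo5c followed at 1.07. Ednrb stood at 6.49 FPKM in dorsal cloaca, 10.8 in ventral cloaca, 30.5 in hindgut and 0.89 in urethra. With only 4 columns, from tables normalized separately, such likeness is a description. No such counts were made for other genes, so how common either pattern is was not tested.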

How the data were processed

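The authors deposited FPKM in 2 tables, which have 1 column for each region, per the file headers. Per the submitters' processing notes, Cufflinks 2.2.1 and mm10 were used. The aligner, annotation, strand setting and the method of combining a region's 4 libraries were not given in the sources used here. The age of a table was taken from its name, and E13.5 dorsal and ventral columns were read as hindgut and urethra from the labels. No column beyond these was present.

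Levels were described as deposited. Regional differences are differences of log2(FPKM + 1), ventral minus dorsal, which understates changes of low genes, and a gene was counted at 2-fold with at least 1 FPKM in either region; this is a size rule and not a test. An FPKM of 0 can be a failed estimate and no fold is given against it. Alternatives were pseudocounts of 0.1 and 5, no minimum or 5 FPKM, upper-quartile scaling and quantile normalization.

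The members and lists were chosen with earlier results of these data known. Named were all members, pathway genes past 2-fold or among the 2 highest of their list, the 3 highest of each marker list, and the 5 genes nearest to Shh and to Ihh among single-name features with 10 FPKM in a column and a span of their own, leaving out small RNAs and unnamed transcripts. Not reported here are some genes and 1 marker list under this rule. Ext1 in comparison with Ext2, Boc with Cdon, T, Noto, Cdx2, Vil1, Prrx2, Lum and the E13.5 values of Foxf1 and Foxf2 were added after values were seen. So were Tfap2b, Csf1r, C1qa and C1qb. Python 3.11.15 with pandas 2.3.3 was used.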

Additional observations from a re-analysis of the deposited data

How the results depend on the processing

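Of 72 differences of members under other settings, 68 kept their direction and side of the 2-fold limit. Part of this was fixed in advance. A change of pseudocount cannot turn a direction, and Dhh and Hhip, under the minimum, could not be counted as 2-fold. Dhh, at 0 in both E10.5 columns, has no direction there. The 4 others were those of Gli3 and Gli2 with a pseudocount of 5, Gli3 with one of 0.1 and Shh under quantile normalization, given above. No direction turned under upper-quartile scaling or quantile normalization, the only settings here that could turn one. With a pseudocount of 5, which shrinks every difference of low genes, 0 members in place of 1 were past 2-fold at E10.5 and 1 in place of 2 at E13.5, and 8 in place of 25 and 5 in place of 8 of the other pathway genes. Over all genes 401 and 325 were then higher ventrally and dorsally at E10.5, and 173 and 227 at E13.5. With a minimum of 5 FPKM, which drops Gli2, 1 member remained at E13.5. Both other scalings moved the median of all genes by less than 0.1.

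No paired analysis was possible because the tables hold 1 value per region and none per embryo, and leaving out a replicate was not run for the same reason. Unknown depth and the lack of replicates limit every value, most of all those of Hhip, Gli2 and Dhh and the urethral value of Ihh.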
